A study of Mus musculus with 18 samples.

Results

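Regulators of G protein signaling (RGS proteins) are the brakes of receptors that act through heterotrimeric G proteins. The 10 RGS genes described here are Rgs2, Rgs3, Rgs4, Rgs5, Rgs10, Rgs12, Rgs14, Rgs16, Rgs17 and Rgs19, out of 22 genes with an Rgs or Rgsl symbol in the table and 54347 genes in all. The list was chosen by symbol with the measured levels and differences of these same libraries known, so the values below, adjusted p-values included, describe these libraries and are no independent evidence for the genes that were picked. The choice did not follow level alone. Ranked by mean normalized count over the 18 libraries, the 8 highest family members are all in the list. Of the genes near that edge, Rgs5 with a mean of 11.4 and Rgs14 with a mean of 0.779 are in the list, while Rgs11 with 18.2 and Rgs20 with 6.83 are not.

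RNA was sequenced from mesenchymal stem cells (MSC), a primary line of adherent progenitors made from the bone marrow of male C57BL/6J mice, in 6 groups of 3 libraries. In the first experiment cells were untransfected and were left untreated (control), given CK666, a small molecule that inhibits the Arp2/3 complex and so the branching of actin filaments, or given cytochalasin D (CytoD), a fungal compound that blocks growth of actin filaments in the cytoplasm. The second experiment used transfected cells, which received a control siRNA (siControl), an siRNA against Arp4 (siArp4), or that siRNA and then CK666 (siArp4+CK666). Arp4 is an actin-related protein of the nucleus, made from Actl6a. Transfected cells stood overnight in serum-free medium with the lipid reagent before the medium was replaced, and a group with control siRNA and CK666 was not analysed here.

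Receptors of this class load GTP onto the alpha subunit of a G protein, and the alpha subunit signals until it hydrolyses that GTP. RGS proteins bind the active alpha subunit and speed hydrolysis, which ends the signal. The family divides into the small R4 class (Rgs2, Rgs3, Rgs4, Rgs5 and Rgs16 here), the RZ class (Rgs17, Rgs19 and Rgs20), the R12 class (Rgs10, Rgs12 and Rgs14) and the R7 class (Rgs11 here), and many members are regulated at the level of their mRNA. In marrow stroma, prostaglandin, parathyroid hormone, lysophospholipid and purine receptors are among the receptors that signal in this way.

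Several of the genes lie close to each other on mouse chromosome 1 (GRCm38). Rgs2 lies at chr1:143999338-144004161 on the minus strand, and Rgs16 at chr1:153740349-153745468 on the plus strand. Rgs5, at chr1:169655501-169695813 on the plus strand, and Rgs4, at chr1:169741477-169747642 on the minus strand, are neighbours 45.7 kb apart. The 250 bases before the RefSeq start of these 4 genes are printed because Rgs2 and Rgs16 rose with the Arp4 siRNA, and because the neighbours Rgs4 and Rgs5 were both lower with CK666 added to it. The sequences are RefSeq's for GRCm38.p6, read along each gene's own strand, and 9 of the 10 genes had an entry. Capitals mark matches on either strand to the TATA box (TATAAA), the core of the cAMP response element (TGACG), the AP-1 site (TGANTCA), the CCAAT box (CCAAT), the TEAD site (CATTCC) or the CArG box. The windows are chr1:144004150-144004399 for Rgs2, chr1:153740103-153740352 for Rgs16, chr1:169747643-169747892 for Rgs4 and chr1:169655251-169655500 for Rgs5.
Rgs2: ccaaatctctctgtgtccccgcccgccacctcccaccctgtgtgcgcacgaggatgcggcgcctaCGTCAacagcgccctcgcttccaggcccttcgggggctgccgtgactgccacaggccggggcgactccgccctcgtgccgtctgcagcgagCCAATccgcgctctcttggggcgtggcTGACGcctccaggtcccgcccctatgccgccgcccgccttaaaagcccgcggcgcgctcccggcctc
Rgs16: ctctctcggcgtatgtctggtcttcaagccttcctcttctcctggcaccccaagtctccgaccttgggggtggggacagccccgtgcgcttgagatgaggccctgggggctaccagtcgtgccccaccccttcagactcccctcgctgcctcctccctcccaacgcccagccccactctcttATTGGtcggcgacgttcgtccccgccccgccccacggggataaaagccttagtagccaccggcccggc
Rgs4: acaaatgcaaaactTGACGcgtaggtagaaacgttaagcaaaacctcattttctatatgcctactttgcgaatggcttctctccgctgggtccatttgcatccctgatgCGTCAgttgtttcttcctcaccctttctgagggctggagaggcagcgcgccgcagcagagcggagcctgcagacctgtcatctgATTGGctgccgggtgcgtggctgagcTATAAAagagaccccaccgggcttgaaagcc
Rgs5: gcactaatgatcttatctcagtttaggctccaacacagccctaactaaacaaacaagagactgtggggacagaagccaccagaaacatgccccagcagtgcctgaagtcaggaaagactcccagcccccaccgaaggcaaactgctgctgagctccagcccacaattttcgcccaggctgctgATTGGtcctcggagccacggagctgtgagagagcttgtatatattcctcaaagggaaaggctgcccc

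All 4 windows held a CCAAT box, which 33.8% of 32851 RefSeq windows of this length hold. Rgs2 and Rgs4 each held 2 cores of the cAMP response element, which 17.8% of the windows hold at least once. Those of Rgs2 lay at -185 to -181 and at -67 to -63 relative to the start, and those of Rgs4 at -236 to -232 and at -141 to -137. A TATA box was present in Rgs4 alone of the 4, at -31 to -26, against 12.4% of windows. No AP-1 site (6.75% of windows), TEAD site (12.6%) or CArG box (1.47%) was matched in these 4 windows, and no 2 matches overlapped. A match of letters is a description and not a measured binding site.

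Libraries held 18075610 to 24733212 estimated counts each, and between 12563 and 13234 genes reached 10 counts. Actl6a was at 896 ± 209 (SD, n = 3) normalized counts in siControl, 41.7 ± 20.1 in siArp4 and 16.8 ± 6.76 in siArp4+CK666. Of 11 stromal markers, the collagen genes Col1a2 and Col1a1 and the integrin Itgb1 had the highest medians (93716, 43446 and 15049), so the stromal sum is mostly collagen counts. Thy1 was listed at 0 in every library, Nt5e did not exceed 7.88 normalized counts and Eng ranged from 5.26 to 77.6. The stromal sum ranged from 187175 to 199161 in control, 98107 to 113025 in CK666, 176188 to 190998 in CytoD, 101259 to 164819 in siControl, 229464 to 258978 in siArp4 and 112193 to 129172 in siArp4+CK666. Of 7 macrophage markers, Cd14, Csf1r, Cd68 and Lyz2 had counts in every library (39.4 to 131, 12.6 to 186, 15.6 to 110 and 11.3 to 194), Adgre1 did not exceed 13.002, and Ptprc and Itgam did not exceed 1.08. The summed adipocyte markers (Adipoq, Plin1, Cidec, and Lep, which was at 0 throughout) ranged from 58.9 to 117 in control, 239 to 458 in CK666, 650 to 839 in CytoD, 145 to 276 in siControl, 4.42 to 21.6 in siArp4 and 134 to 200.0 in siArp4+CK666, and the part of these cell type markers in the results below was not tested. The siControl libraries differed most among themselves, siControl 2 having the lowest share of mitochondrial counts of the series (1.30%), so results for RGS genes against siControl that move by over 1.5 times or change their call are also given without it. The mitochondrial share was 1.30% to 2.65% in siControl, 2.67% to 3.26% in siArp4 and 2.86% to 3.36% in siArp4+CK666, and its part in the results was not tested. In bulk RNA, fewer cells that express a gene and less RNA per cell cannot be told apart.

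Genes are said to have risen or fallen where DESeq2 gave an absolute log2 fold change above 1 and an adjusted p below 0.01, both over all genes. By that rule 1 of the 10 genes was called with CK666 against control (Rgs4), where 11% of all tested genes were called, 4.89% higher and 6.06% lower. With CytoD against control 1 gene was called (Rgs2), where 9.12% of tested genes were called, 4.8% higher and 4.32% lower. With siArp4 against siControl 3 genes were called (Rgs2 and Rgs16 higher, Rgs3 lower), where 16.2% of tested genes were called, 6.69% higher and 9.49% lower. With siArp4+CK666 against siControl 6 genes were called (Rgs2, Rgs16 and Rgs17 higher, Rgs3, Rgs4 and Rgs10 lower), where 20.4% of tested genes were called, 8.06% higher and 12.4% lower. In each of these fits 9 of the 10 genes were tested, since Rgs14 was too low for an adjusted p. The median log2 fold change of the 9 tested genes was 0.12, 0.45, 0.40 and -0.34 in these 4 comparisons, against 0.01, 0.01, -0.05 and -0.05 over all tested genes. Both comparisons of an experiment share their control libraries, so their counts are not independent of each other.

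**Figure D1:**
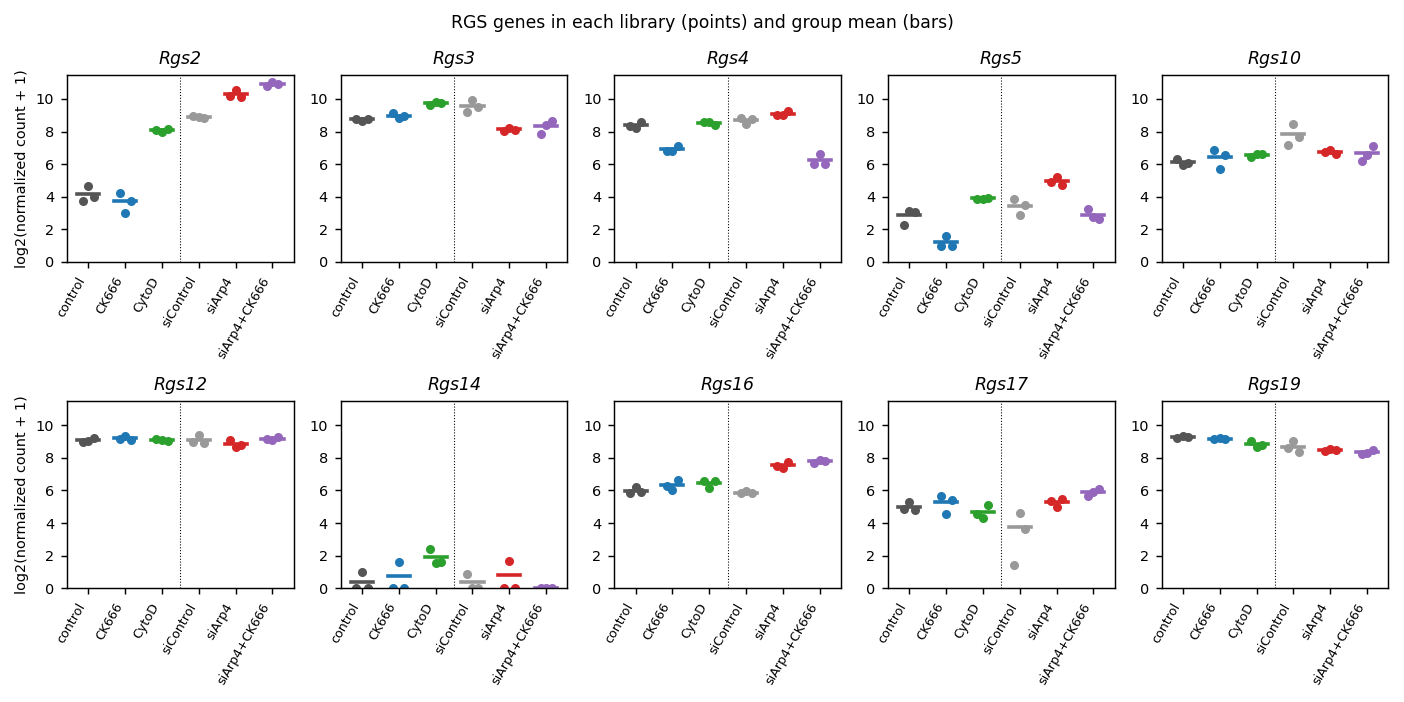
Each panel plots 1 RGS gene, with log2(normalized count + 1) on the vertical axis, the 3 libraries of each group as points and the group mean as a short bar. The dotted line separates the untransfected from the transfected experiment, which were normalized separately, and the Rgs2 panel climbs from group means of 12.3 and 17.1 normalized counts to 1951 in siArp4+CK666.

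Rgs2, a small RGS protein that acts mainly on alpha subunits of the Gq class, spanned a wider range than the other 9 genes. Its normalized counts were 12.6, 24.3 and 14.5 in control and 17.7, 7.14 and 12.1 in CK666. They were 267, 255 and 287 in CytoD. The CytoD libraries stood far above both other groups of the experiment, which overlapped each other. Rgs2 rose 15.7-fold with CytoD against control, or 3.97 ± 0.32 on the log2 scale (SE; adjusted p = 4.18e-33, DESeq2). With CK666 against control the log2 fold change was -0.48 with a 95% interval of -1.25 to 0.30, so a decrease or a small increase could not be told apart at group means of 12.3 and 17.1 counts.

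In the transfected cells Rgs2 was high from the start. It was at 494, 475 and 462 normalized counts in siControl, at 1173, 1479 and 1128 in siArp4 and at 1804, 2095 and 1955 in siArp4+CK666. The 3 groups did not overlap. Rgs2 rose 2.64-fold with siArp4 against siControl (log2 fold change 1.40 ± 0.16 (SE), adjusted p = 8.85e-16, DESeq2) and 4.09-fold with siArp4+CK666 against siControl (log2 fold change 2.03 ± 0.16, adjusted p = 4.34e-33, DESeq2). The step from siArp4 to siArp4+CK666 was 0.63 on the log2 scale, with an interval of 0.31 to 0.95, and stayed under the fold change required for a call. That step had an adjusted p of 0.00135 (DESeq2), which reached 0.0583 when single libraries were left out.

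The distance between the 2 control groups was larger than any of these. In the fit of all 18 libraries Rgs2 had a mean of 16.7 normalized counts in control and 481 in siControl, a 28.8-fold difference with a log2 value of 4.85 ± 0.25 (SE). In this comparison 24.1% of all tested genes were called, and of the RGS genes Rgs10 was called beside Rgs2. Transfection, the overnight serum-free step and the experiment itself differ together between these groups and cannot be told apart.

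Rgs4 acts on alpha subunits of the Gi and Gq classes. Its normalized counts were 318, 295 and 381 in control, 109, 113 and 136 in CK666 and 383, 381 and 337 in CytoD. Every CK666 library lay below every control and CytoD library, while control and CytoD overlapped. Rgs4 fell 2.77-fold with CK666 against control, or -1.47 ± 0.17 on the log2 scale (SE; adjusted p = 9.33e-16, DESeq2), and the value ranged from -1.57 to -1.36 when single libraries were left out. With CytoD the log2 fold change was 0.15 with an interval of -0.17 to 0.47. The summed stromal markers, mostly collagen counts, were also lower in every CK666 library than in every control and CytoD library, and their part in the Rgs4 result was not tested.

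The same gene was lower with CK666 in the cells that carried the Arp4 siRNA. It was at 455, 345 and 443 normalized counts in siControl, 510, 520 and 611 in siArp4 and at 64.5, 96.3 and 64.3 in siArp4+CK666. The group with CK666 stood apart below the other two. The stromal sum was lower in every siArp4+CK666 library than in every siArp4 library, while it overlapped siControl. Rgs4 fell 7.27-fold with siArp4+CK666 against siArp4 (log2 fold change -2.86 ± 0.24 (SE), adjusted p = 1.61e-30, DESeq2) and 5.51-fold against siControl (log2 fold change -2.46). The Arp4 siRNA alone gave a log2 fold change of 0.40 with an interval of -0.04 to 0.84. In the comparison of siArp4+CK666 with siArp4, 5.75% of all tested genes were called.

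A fit of all 18 libraries tested whether CK666 differed in size between the knockdown cells and the untransfected cells. For Rgs4 the difference was -1.39 on the log2 scale (SE 0.26, adjusted p = 4.08e-06, DESeq2), so the decrease with CK666 was deeper in the cells with the Arp4 siRNA. It ranged from -1.63 to -1.29 when each library was left out in turn. Rgs4 was the 1 RGS gene called here, where 4.42% of all tested genes were called. Rgs2 had a difference of 1.10 on the same scale (adjusted p = 0.0255, DESeq2), which was not called. With single libraries left out it ranged from 0.75 to 1.45 and the adjusted p (DESeq2) from 0.00977 to 0.286, with a call without siArp4 replicate 2 (log2 value 1.23). The knockdown cells differ from the untransfected cells in transfection as well as in Arp4, and the effects of these cannot be told apart in this comparison.

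**Figure D2:**
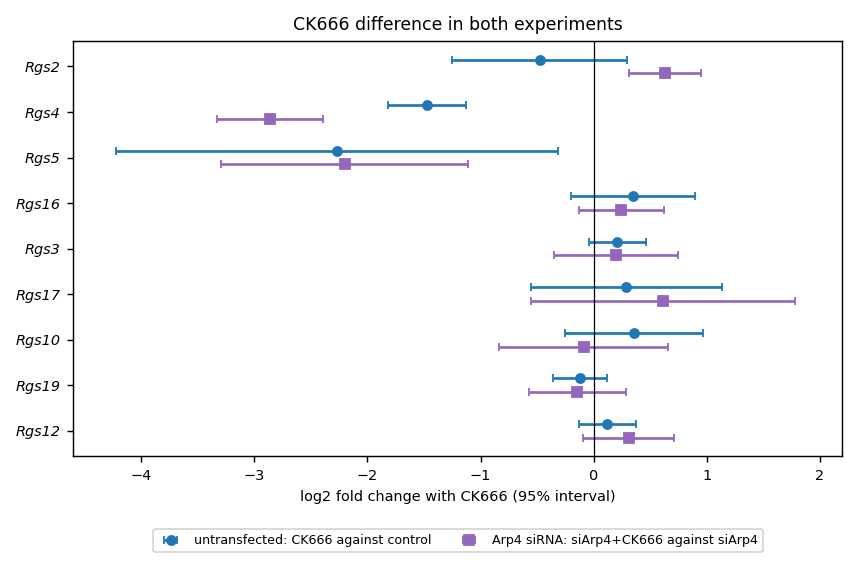
The horizontal axis is the log2 fold change with CK666, as circles for untransfected cells (CK666 against control) and squares for cells with the Arp4 siRNA (siArp4+CK666 against siArp4), with bars for 95% intervals and 1 row for each of 9 RGS genes. Rgs4 lies at -1.47 and -2.86 and Rgs5 at -2.27 and -2.20, while the intervals of Rgs3, Rgs10, Rgs12, Rgs16, Rgs17 and Rgs19 include 0 in both settings.

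Rgs5, the neighbour of Rgs4 and a gene known from pericytes, was low throughout. It had 3.87, 7.79 and 7.24 normalized counts in control, 0.98, 2.04 and 0.93 in CK666 and 13.8, 13.6 and 14.4 in CytoD. In transfected cells it had 13.4, 6.29 and 10.3 in siControl, 28.6, 35.6 and 25.0 in siArp4 but 8.46, 5.72 and 5.27 in siArp4+CK666. The 3 groups of the first experiment did not overlap, nor did siArp4 overlap either other transfected group.

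Rgs5 fell with siArp4+CK666 against siArp4 (log2 fold change -2.20 ± 0.56 (SE), adjusted p = 0.00114, DESeq2) and was lower with CK666 than with CytoD (log2 fold change -3.42 ± 0.97, adjusted p = 0.00159, DESeq2). In the direct comparison of CK666 with CytoD, 11.8% of all tested genes were called, and Rgs2, Rgs4 and Rgs5 were the RGS genes among them, each lower with CK666. The call of Rgs5 between siArp4+CK666 and siArp4 was lost without siArp4 replicate 1, siArp4 replicate 2, siArp4+CK666 replicate 2 or siArp4+CK666 replicate 3, with adjusted p-values (DESeq2) of 0.0209, 0.0353, 0.0236 and 0.0174, and under edgeR (adjusted p = 0.0113). The call against CytoD was lost without CK666 replicate 1 (adjusted p = 0.0117, DESeq2) or CK666 replicate 3 (adjusted p = 0.0141, DESeq2). Against the untreated control, CK666 gave a log2 fold change of -2.27 that was not called (adjusted p = 0.0563, DESeq2). The summed pericyte and smooth muscle markers were at or below 24.4 normalized counts in every library, with Kcnj8 at 0 throughout.

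Rgs16 and Rgs3 are further members of the R4 class, and they moved in opposite directions with the Arp4 siRNA. Rgs16 was at 56.2, 60.4 and 56.0 normalized counts in siControl, 181, 167 and 209 in siArp4 and at 204, 233 and 224 in siArp4+CK666. Both groups with the siRNA were above siControl, and they overlapped each other. Rgs16 rose 3.24-fold with siArp4 (log2 fold change 1.70 ± 0.21 (SE), adjusted p = 6.63e-14, DESeq2) and 3.84-fold with siArp4+CK666 (log2 fold change 1.94 ± 0.21, adjusted p = 2.15e-18, DESeq2). In the first experiment it lay between 56.1 and 98.6 in all 9 libraries, and its log2 fold changes of 0.35 with CK666 and 0.45 with CytoD were not called.

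Rgs3, the largest of the R4 class in these annotations by exon length, was at 579, 998 and 732 normalized counts in siControl, 260, 298 and 278 in siArp4 and at 233, 334 and 393 in siArp4+CK666. All 6 libraries with the siRNA were below the lowest siControl library. Rgs3 fell 2.76-fold with siArp4 (log2 fold change -1.47 ± 0.28 (SE), adjusted p = 1.29e-06, DESeq2) and 2.40-fold with siArp4+CK666 (log2 fold change -1.27 ± 0.28, adjusted p = 2.91e-05, DESeq2). Without siControl replicate 2, which had the highest value, the log2 fold changes were -1.24 and -1.04 and both calls held.

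In untransfected cells Rgs3 was at 435, 406 and 445 normalized counts in control, 553, 446 and 485 in CK666 and 795, 891 and 875 in CytoD. CytoD libraries were above all others of that experiment. The log2 fold change with CytoD was 0.99 ± 0.13 (SE) with an adjusted p of 7.30e-14 (DESeq2), just under the minimum of 1. It was 1.04 without CytoD replicate 1, 1.003 without control replicate 1 and 1.02 without control replicate 3, and it was then called. With CK666 the log2 fold change was 0.21 with an interval of -0.04 to 0.46.

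**Figure D3:**
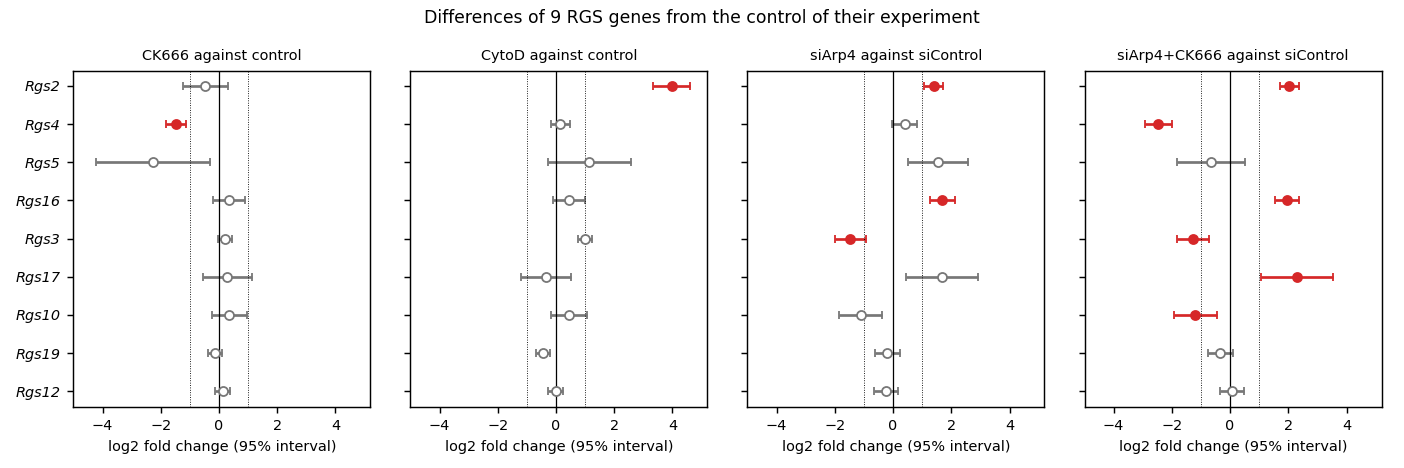
Each panel is 1 comparison with the control group of the same experiment, with the log2 fold change on the horizontal axis, bars for 95% intervals, dotted lines at -1 and 1, and filled red points for called genes. Rgs2 is to the right in CytoD (3.97), siArp4 (1.40) and siArp4+CK666 (2.03), and Rgs4 is to the left in both groups that received CK666 (-1.47 and -2.46).

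The RZ class holds Rgs17 and Rgs19, which act on alpha subunits of the Gi and Gz types. Rgs17 was at 1.68, 23.9 and 11.2 normalized counts in siControl, 40.4, 30.2 and 43.1 in siArp4 and at 48.6, 58.2 and 67.4 in siArp4+CK666. All 3 siControl libraries lay below every library with the siRNA, but they spread widely. Rgs17 rose 4.90-fold with siArp4+CK666 against siControl (log2 fold change 2.29 ± 0.63 (SE), adjusted p = 0.00119, DESeq2). With siArp4 alone the log2 fold change of 1.68 was not called (adjusted p = 0.0268, DESeq2), and it was 2.58 and called without siControl replicate 2 (adjusted p = 0.000159, DESeq2). The call with siArp4+CK666 was lost without siControl replicate 3, siArp4+CK666 replicate 2 or siArp4+CK666 replicate 3, with adjusted p-values (DESeq2) of 0.0130, 0.0123 and 0.0152, and under edgeR (adjusted p = 0.0231). Without siControl replicate 2 the log2 fold change with siArp4+CK666 was 3.20 (adjusted p = 1.05e-06, DESeq2). Between siControl and control it was -1.35 and not called (adjusted p = 0.0249, DESeq2), and -2.26 and called without siControl replicate 2 (adjusted p = 0.000301, DESeq2). In the first experiment Rgs17 lay between 18.4 and 49.1 in all 9 libraries and was not called.

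Rgs19 was among the most abundant of the genes and was not called in any comparison. It was at 597, 656 and 621 normalized counts in control, 567, 589 and 566 in CK666 and 513, 411 and 441 in CytoD. CytoD libraries were below all others of the experiment, with a log2 fold change of -0.46 (interval -0.70 to -0.21, adjusted p = 0.00108, DESeq2) that did not reach the minimum for a call. In transfected cells Rgs19 ranged from 299 to 522, and its log2 fold changes against siControl were -0.20 with siArp4 and -0.34 with siArp4+CK666, with intervals that include 0. Between siControl and control the log2 value was -0.56 (interval -0.88 to -0.24, adjusted p = 0.00176, DESeq2), with every siControl library below every control library. Without siControl replicate 2 it was -0.78, also under the minimum for a call.

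Of the R12 class, Rgs10, a small protein that acts on alpha subunits of the Gi class and is abundant in immune cells, was at 141, 347 and 205 normalized counts in siControl, 104, 118 and 98.2 in siArp4 and at 73.0, 93.5 and 135 in siArp4+CK666. Libraries with the siRNA were all below the lowest siControl library, and siControl replicate 2 stood highest. Rgs10 fell 2.29-fold with siArp4+CK666 (log2 fold change -1.20 ± 0.38 (SE), adjusted p = 0.00558, DESeq2), while with siArp4 the log2 fold change of -1.11 was not called (adjusted p = 0.0125, DESeq2) and was -1.37 and called without siControl replicate 1 (adjusted p = 0.00037, DESeq2). Without siControl replicate 2 these values were -0.78 and -0.70, and neither was called. The call with siArp4+CK666 was lost in 7 of 9 fits that left out 1 library, those without siControl replicate 2 or 3, any siArp4 library, or siArp4+CK666 replicate 1 or 2, and the adjusted p (DESeq2) reached 0.0474. It was also lost under edgeR (adjusted p = 0.0244). In the first experiment Rgs10 lay between 52.0 and 116 and was not called. Against control, siControl was 3.54-fold higher in Rgs10 (log2 value 1.82 ± 0.35), and 1.39 on the log2 scale without siControl replicate 2. The summed macrophage markers ranged from 149 to 388 in siControl, 176 to 190.0 in siArp4, 146 to 388 in siArp4+CK666, 217 to 281 in control, 167 to 239 in CK666 and 343 to 377 in CytoD, and their part in the Rgs10 values was not tested.

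Rgs12, a large scaffold that also binds Ras proteins and inactive alpha subunits, varied least. Its group means spanned 0.29 on the log2 scale when all 18 libraries were normalized together, and none of its log2 fold changes was called. The interval of the difference with CK666 was -0.13 to 0.38, with CytoD -0.27 to 0.24, with siArp4 -0.64 to 0.17 and with siArp4+CK666 -0.33 to 0.48. Rgs14, its smaller relative, had counts in 7 of 18 libraries and at most 4.33 estimated counts in any of them. It was listed above 0 in all 3 CytoD libraries, at 4.25, 1.94 and 2.06 normalized counts, and at 0 in all 3 siArp4+CK666 libraries, and a difference was not detectable at this depth.

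Of the other 12 family members, Rgs1, Rgs7, Rgs8, Rgs18 and Rgs21 had no count in any library, and Rgs6, Rgs9, Rgs13, Rgs22 and Rgsl1 stayed at or below 2.46 estimated counts. Rgs11, of the R7 class that pairs with the beta subunit Gnb5, was at 27.7, 26.4 and 33.6 normalized counts in siControl, 13.5, 12.96 and 22.0 in siArp4 and at 10.6, 4.77 and 1.05 in siArp4+CK666. The groups did not overlap. It fell with siArp4+CK666 against siControl (log2 fold change -2.42 ± 0.65 (SE), adjusted p = 0.000826, DESeq2), a call lost without siControl replicate 3 (adjusted p = 0.0149, DESeq2) or siArp4+CK666 replicate 2 (adjusted p = 0.0117, DESeq2) and under edgeR (adjusted p = 0.0130). Rgs20 had group means between 3.97 and 10.4 and was not called. Both are uncertain in unstranded libraries, since Rgs11 shares 138 exonic bases with Arhgdig and Rgs20 shares 127 with Atp6v1h on the opposite strand.

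Per kilobase of annotated exon, Rgs19 was the highest of the family in control and Rgs2 in both groups with the Arp4 siRNA. Control and the transfected groups also differ in transfection, the serum-free step and the experiment, which cannot be told apart here. On this scale Rgs19 had the highest level in control (273 ± 13.7 normalized counts per kb, SD, n = 3), where Rgs4 followed with 104 ± 14.1 and Rgs2 stood at 4.60 ± 1.70. In siControl Rgs19 stood at 186 ± 49.1 and Rgs2 already at 133 ± 4.33. In siArp4 the order was Rgs2 at 356 ± 53.8, Rgs4 at 181 ± 18.4 and Rgs19 at 164 ± 7.36, the last 2 lying within their spread. In siArp4+CK666 Rgs2 stood at 545 ± 45.8, Rgs19 at 147 ± 15.1, Rgs16 at 95.4 ± 7.53 and Rgs4 at 24.5 ± 6.06. Rgs2 made up 0.817% ± 0.300 (SD, n = 3) of the summed level per kb of the 22 genes in control, 0.661% ± 0.262 in CK666, 11.6% ± 0.785 in CytoD, 17.6% ± 2.59 in siControl, 37.4% ± 3.85 in siArp4 and 55.5% ± 2.06 in siArp4+CK666. The sum without Rgs2 was 558 ± 25.9 in control, 486 ± 18.3 in CK666, 554 ± 25.0 in CytoD, 632 ± 126 in siControl, 592 ± 20.7 in siArp4 and 437 ± 53.2 in siArp4+CK666. Levels per kb use the union of all annotated exons, which lowers genes with many alternative exons such as Rgs3.

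**Figure D4:**
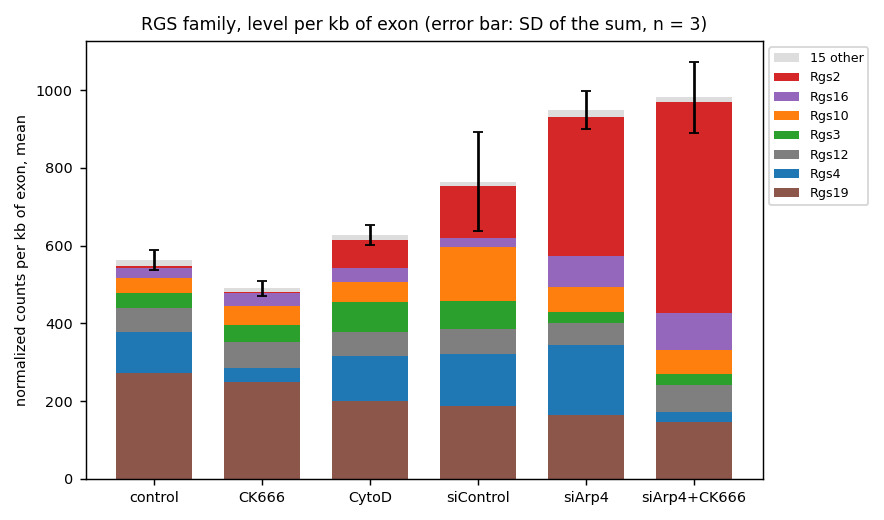
Bars stack the mean normalized counts per kb of exon of 7 RGS genes and of the 15 others in each group, and the error bar is the SD of the family sum over 3 libraries. The Rgs2 part is 4.60 in control, 133 in siControl and 545 in siArp4+CK666, and the Rgs19 part at the base is 273, 186 and 147. Control cells were untransfected and belong to the other experiment.

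The partners of RGS proteins were described from lists of G protein subunits, receptor kinases and arrestins, effectors, receptors and cAMP-responsive genes. These lists too were drawn up with results of these data known, and their counts stand beside the shares of all tested genes without a test of the difference. With CK666 against control, where 11% of all tested genes were called, none of 12 tested alpha subunits was called. Of 6 tested receptor kinases and arrestins 1 rose and 1 fell. Arrb1, which ends signaling at the receptor, fell from 617 ± 86.3 to 189 ± 26.6 normalized counts (log2 fold change -1.71), and Arrb2 rose by 1.09 on the log2 scale, a call that was lost without CK666 replicate 1 (0.64) or without any 1 of the control libraries. The Arrb2 call was also lost with the replicate number as a block (0.99) and under edgeR (adjusted p = 0.0286). Of 9 tested effectors 1 rose and 1 fell. Adcy7, an adenylyl cyclase, fell from 131 ± 32.6 to 17.8 ± 7.07 (log2 fold change -2.88), and Adcy9 rose by 1.39, a call that was lost without CK666 replicate 2 (0.92).

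Of 20 tested receptors 2 rose and 7 fell with CK666, beside 4.89% of all tested genes called higher and 6.06% called lower, and the median log2 fold change was -0.42 against 0.01 over all tested genes. Avpr1a, the vasopressin receptor that couples to Gq, fell from 1534 ± 15.3 to 305 ± 47.8 (log2 fold change -2.33) and Ptger4, a prostaglandin E2 receptor that couples to Gs, fell from 489 ± 28.9 to 130 ± 7.56 (log2 fold change -1.91). Adra2a, an adrenergic receptor that couples to Gi, rose from 7.24 ± 2.11 to 180 ± 17.5 (log2 fold change 4.63). Of 13 tested cAMP-responsive genes 2 rose and 2 fell. Per1 fell by 1.29 on the log2 scale. Pde4d fell by 1.01 and Pde3b rose by 1.16, but Pde4d was not called without CK666 replicate 1 (-0.87) or control replicate 3 (-0.94), nor Pde3b without CK666 replicate 3 (0.96).

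With CytoD against control, where 9.12% of all tested genes were called, none of 13 tested cAMP-responsive genes and none of 10 alpha subunits was called. Of 8 tested effectors Adcy7 fell to 50.3 ± 9.38 normalized counts (log2 fold change -1.38), and the call was lost without control replicate 2 (adjusted p = 0.0109, DESeq2). Of 18 receptors Ptgfr, the prostaglandin F receptor that couples to Gq, rose by 1.01, and the call was lost without CytoD replicate 1 (0.92), CytoD replicate 3 (0.98) or control replicate 3 (0.96).

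With siArp4 against siControl, 6.69% of all tested genes were called higher and 9.49% lower. Of 11 tested alpha subunits 1 rose and 2 fell. Gnai2 fell from 11334 ± 2435 to 4720 ± 248 normalized counts (log2 fold change -1.26) and Gnai3 fell from 2110 ± 538 to 857 ± 84.8 (log2 fold change -1.30), both alpha subunits of the Gi class. Of 8 tested effectors Plcb3, a phospholipase C that Gq activates, fell by 1.08, and Adcy7 rose by 1.22. The Adcy7 call had an adjusted p of 0.00822 (DESeq2) and was lost in 8 of 9 fits that left out 1 library. Of 19 receptors 5 rose and 1 fell, among them Ptger4, which rose by 1.52, and Gpr39, a zinc-sensing receptor, which rose by 1.47. Of 13 cAMP-responsive genes Pde4b, a phosphodiesterase that degrades cAMP, rose from 19.5 ± 9.53 to 85.8 ± 13.4 (log2 fold change 2.11). Of 14 other G protein regulators Snx25, a sorting nexin with an RGS-like domain, fell by 1.004 on the log2 scale, and that call was lost without siControl replicate 2 or 3 or siArp4 replicate 1 or 3 (values -0.89 to -0.95).

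With siArp4+CK666 against siControl, 8.06% of all tested genes were called higher and 12.4% lower. Of 11 alpha subunits 2 rose and 2 fell. Gnai2 fell by 1.38 and Gnai3 by 1.15 on the log2 scale, the latter not called without siControl replicate 1 (-0.95), while Gna11, an alpha subunit of the Gq class, rose from 937 ± 98.1 to 2043 ± 98.4 normalized counts (log2 fold change 1.12). Of 19 receptors 1 rose and 3 fell, among them Adra1d (-1.58), an adrenergic receptor that couples to Gq, and Gpr39 (-1.50). Of 13 cAMP-responsive genes 3 rose and 1 fell. Sik1, a kinase of the cAMP response, rose by 1.12, and lost its call without siArp4+CK666 replicate 1 (0.93). 4 further calls in this comparison were lost with a library left out. Adcy7 (-1.35) was not called without siControl replicate 1 or 3 or without any siArp4+CK666 library (adjusted p 0.0107 to 0.0295, DESeq2). Gpsm3 (-1.66) lost its call without siArp4+CK666 replicate 1 (adjusted p = 0.0119, DESeq2) and was -1.07 without siControl replicate 2. Nr4a1 (-1.18) was not called without siControl replicate 3 (adjusted p = 0.0151, DESeq2) or siArp4+CK666 replicate 2 (adjusted p = 0.0124, DESeq2). Pde4b (1.52) lost its call without siArp4+CK666 replicate 1 (adjusted p = 0.0142, DESeq2) or 2 (adjusted p = 0.0331, DESeq2).

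For the 4 RGS genes with the widest range of group means, the genes whose log2 levels followed them most closely over the 18 libraries were listed among genes with a mean of at least 100 normalized counts. Libraries of a group and of an experiment share their treatment, so these coefficients mostly restate the differences between 6 groups. Rgs2 was followed by Bcl2l11 (Pearson r = 0.99), Tapbpl (0.98) and Pnrc1 (0.98), out of 9929 genes searched. Bcl2l11 encodes the cell death protein BIM, and its normalized counts ran from 87.3 to 800 over the libraries. Rgs5 was followed by Stat5a (0.96), Enpp3 (0.95) and Il1rn (0.91). Rgs4 was followed by Osbpl3 (0.94), Tgm2 (0.94) and Glt8d2 (0.93), where Tgm2 encodes a transglutaminase that crosslinks proteins. Rgs17 was followed by Rhod (0.90), Ints4 (0.86) and Dnajc11 (0.86).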

How the data were processed

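The authors isolated total RNA, had unstranded paired-end libraries sequenced, and quantified them with Salmon 1.2.1 against GENCODE vM25 on GRCm38 (mm10). They deposited estimated counts per gene for 18 libraries, 3 distinct preparations per condition, with no scaling between libraries. How transcript estimates were summed to genes is not given in the sources used here. Gene IDs were matched to symbols for 54094 of 54347 rows. The estimated counts were rounded to whole numbers and fitted with DESeq2 1.42.0 (R 4.3.3, Wald test, Benjamini-Hochberg adjustment over all genes), with 9 libraries for comparisons within an experiment and 18 across experiments. Normalized counts are counts divided by DESeq2 size factors. Calls needed an absolute log2 fold change over 1 and an adjusted p below 0.01, and intervals are 95% Wald intervals.

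The RGS genes and pathway lists were chosen with earlier results of these data known. Named were the 10 genes, other RGS genes with a group mean of at least 10 or a call, and per list and comparison up to 3 called genes with the largest change and a mean of at least 50. This list rule was followed in full for comparisons with the control of an experiment and for the difference of the CK666 effects. In the remaining comparisons only some of these list genes were named. Alternatives were TMM size factors, edgeR 4.0.16 (quasi-likelihood), a low-count filter (10 counts in 3 libraries), no fold minimum, a test against a log2 fold change of 1, a replicate block, 1 fit of all 18 libraries, and leaving out each library. The fits were also run on simulated counts with the same spread in every group, so that run does not cover the wider spread among siControl libraries. Library pairs of a group differed by more than sampling noise. The p-values measure the spread between 3 preparations per group. The paper states that its studies used a primary line made in the laboratory, so these p-values do not measure a spread between mice. Gene positions, exon lengths and overlaps come from an earlier GENCODE release than the one used for quantification, and promoter windows from RefSeq.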

Additional observations from a re-analysis of the deposited data

Results flagged for a closer look

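Rgs4 is marked for a closer look because the difference made by CK666 was not the same in both settings. The CK666 log2 fold change in cells with the Arp4 siRNA minus that in untransfected cells was -1.39 (SE 0.26, adjusted p = 4.08e-06, DESeq2 over 18 libraries). All 3 libraries with CK666 lay below all 3 without it in each setting. With 3 libraries in a group, single libraries were not tested as outliers.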

How the results depend on the processing

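No called log2 fold change of an RGS gene changed its sign under any alternative that was run. Tested against a log2 fold change of 1, the RGS genes called numbered 0 for CK666 against control, 1 for CK666 against CytoD, 0 for siArp4 and 3 for siArp4+CK666 against siControl, 1 for siArp4+CK666 against siArp4, 1 for siControl against control and 0 for the difference of the CK666 effects. With no fold change minimum, 3 were called for CytoD against control, 4 for CK666 against CytoD, 3 for siArp4+CK666 against siArp4 and 4 for siControl against control. edgeR called 1 for siArp4+CK666 against siArp4 and 4 for siArp4+CK666 against siControl, where Rgs10 and Rgs17 were lost. For siArp4 against siControl the low-count filter called 4, adding Rgs5, and the fit of all 18 libraries called 6, adding Rgs5, Rgs10 and Rgs17. Leaving out each library gave 1 called gene throughout for CK666 against control, 1 to 2 for CytoD against control, 2 to 3 for CK666 against CytoD, 3 to 4 for siArp4 and 4 to 6 for siArp4+CK666 against siControl, 1 to 2 for siArp4+CK666 against siArp4, 2 to 3 for siControl against control and 1 to 2 for the difference of the CK666 effects. The cause of these changes was not tested, beyond the stricter or looser rule itself.

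Replicate numbers gave no clear pairing of the libraries. In their deviations 4 of 18 same-numbered pairs correlated above 0.1, with values from -0.34 to 0.60. In 6 of 18 searches, each of 1 library against 1 other group, the best match had the same number. Differently numbered libraries correlated too, siControl 2 with siArp4+CK666 3 at 0.54. With the replicate number as a block, the called RGS genes remained 1 for CK666, 1 for CytoD, 3 for siArp4 and 6 for siArp4+CK666 against the control of the experiment, and were the same genes.

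For the 84 called values of single genes, the call was lost in 85 of 936 leave-one-out values and in 14 of 84 edgeR values. Tested against a log2 fold change of 1, 62 of 84 lost it. In the fit of all 18 libraries 8 of 64 lost it. Among these were Adcy9, Pde4d and Pde3b with CK666 against control (adjusted p = 0.0623, 0.0284 and 0.0633, DESeq2). With TMM size factors Pde4d (-0.99) with CK666 and Gpsm3 (-0.99) between CK666 and CytoD lost it. With the replicate block Arrb2 (0.99) with CK666 and Gpsm3 (-0.996) between CK666 and CytoD did. Over all genes edgeR called 1752 for siArp4 against siControl where DESeq2 called 2494, 466 against 811 for siArp4+CK666 against siArp4, and 384 against 597 for the difference of the CK666 effects.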

Other observations

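Some partners of RGS proteins were called between siControl and control, where 24.1% of all tested genes were called and transfection and experiment cannot be told apart. Of 11 tested alpha subunits 2 were lower in siControl than in control and none was higher. Gna11 had 944 ± 91.5 (SD, n = 3) normalized counts in siControl and 3332 ± 170.2 in control (log2 fold change -1.82), and Gna12 had a log2 fold change of -1.09, not called without siControl replicate 1 (-0.96). Of 12 tested beta and gamma subunits 3 were higher, among them Gng11 (1.53). Gnb5 (1.20) and Gng5 (1.08) were not called without siControl replicate 2 (0.96 and 0.79). Of 19 tested receptors 2 were higher and 8 lower, among them F2r, the thrombin receptor, at 2313 ± 589 in siControl and 7622 ± 69.0 in control (log2 fold change -1.72).

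Beside Rgs4, the CK666 difference was not the same with and without the Arp4 siRNA for Adra2a (difference -4.23 on the log2 scale, adjusted p = 1.20e-14, DESeq2), which rose with CK666 in untransfected cells, and for Avpr1a (difference 1.50, adjusted p = 6.44e-15, DESeq2), which fell there. Sik1 was called too (difference 1.03, adjusted p = 0.000294, DESeq2), but not without CK666 replicate 1 (0.92) or 2 (0.99), siArp4 replicate 2 (0.94) or siArp4+CK666 replicate 1 (0.85).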
